A study of Homo sapiens with 5 samples.

Results

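Metallothioneins, the zinc-sensing transcription factor MTF1 and a set of zinc transporters make up 10 of the 25343 gene rows counted in 5 libraries from the colon carcinoma line SW620. The 10 rows were found by symbol and are MT1E, MT1F, MT1G, MT1M, MT1X, MT2A, MTF1, SLC30A1, SLC39A10 and SLC39A4. They were chosen by the rise of MT1E in its read counts in pos against neg, so values of pos against neg for these 10 genes are a description and support nothing by themselves. Of the 10, 9 had enough reads to enter the fit over 13604 genes, and MT1M had 0 reads in every library.

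All cells carried the tet-MUC1shRNA construct, a tetracycline-inducible short hairpin RNA against MUC1, so the control libraries hold it too. By title, replicates 1, 2 and 3 are neg, and the 2 remaining libraries are pos, numbered 1 and 3. Cells were given either vehicle or doxycycline, the inducer of such constructs, and the labels do not say which of these neg and pos stand for. The labels name no clone, no control hairpin and no treatment time, and cultures in triplicate are the only statement on replicates, so p-values measure the spread between these libraries, which may be technical. MUC1, the target of the hairpin, was counted 176, 252 and 218 times in neg and 27 and 13 times in pos (log2 fold change -3.07, SE 0.34, edgeR adjusted p = 0.0270).

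Metallothioneins are small proteins so rich in cysteine that they bind zinc, copper and cadmium through clusters of thiol groups, and they buffer the free zinc of the cell. MTF1 senses a rise in free zinc and binds metal response elements in the promoters of metallothionein genes and of SLC30A1. Transporters of the ZnT family (SLC30A) move zinc out of the cytosol, across the plasma membrane or into organelles, and those of the ZIP family (SLC39A) move it in. In the gut, SLC39A4 takes up dietary zinc at the apical face of the epithelium.

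The metallothionein members lie in the same stretch of chromosome 16, with other metallothionein genes between some of them. Their coding sequences are printed here because they show both what the proteins are made of and how alike the genes are. Each sequence runs from start to stop codon in lower case with the cysteine codons (TGC or TGT) in capitals, read from GENCODE 44 transcripts. MT1M, with 0 reads, is left out.
MT1E: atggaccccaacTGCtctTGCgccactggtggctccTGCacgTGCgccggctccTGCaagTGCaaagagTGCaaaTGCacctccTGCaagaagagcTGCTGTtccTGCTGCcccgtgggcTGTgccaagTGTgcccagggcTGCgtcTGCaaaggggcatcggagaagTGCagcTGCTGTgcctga
MT2A: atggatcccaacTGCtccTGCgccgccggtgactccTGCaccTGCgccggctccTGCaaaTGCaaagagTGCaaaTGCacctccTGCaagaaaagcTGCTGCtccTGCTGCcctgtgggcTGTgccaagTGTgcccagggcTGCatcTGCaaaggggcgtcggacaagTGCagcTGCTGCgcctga
MT1X: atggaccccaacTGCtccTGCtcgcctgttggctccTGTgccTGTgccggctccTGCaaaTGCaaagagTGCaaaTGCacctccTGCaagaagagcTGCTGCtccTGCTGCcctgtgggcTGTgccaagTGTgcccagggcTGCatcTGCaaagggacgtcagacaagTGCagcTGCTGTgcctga
MT1G: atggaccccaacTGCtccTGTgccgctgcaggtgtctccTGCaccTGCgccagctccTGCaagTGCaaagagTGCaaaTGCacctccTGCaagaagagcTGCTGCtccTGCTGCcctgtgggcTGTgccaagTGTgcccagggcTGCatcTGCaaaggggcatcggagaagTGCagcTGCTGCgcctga
MT1F: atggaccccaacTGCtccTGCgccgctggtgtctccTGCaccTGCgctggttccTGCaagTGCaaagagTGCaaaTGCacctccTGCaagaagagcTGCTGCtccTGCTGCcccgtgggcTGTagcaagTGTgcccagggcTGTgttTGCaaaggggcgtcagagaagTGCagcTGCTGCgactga
Each holds 20 cysteine codons, which are 32.8% of the 61 codons before the stop and 32.3% of the 62 codons of MT1G. MT1E is written from its 3-exon transcript, since the canonical one keeps the sequence between exons 2 and 3. Over all 15 pairs of the 6 metallothionein members, the coding sequences were 88.7% to 93.7% identical, and MT1E was 92.5% identical to MT2A.

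In GRCh38 (GENCODE 44), MT2A lies at chr16:56608584-56609497, MT1E at chr16:56625475-56627112, MT1M at chr16:56632659-56633981, MT1F at chr16:56657731-56660698 and MT1X at chr16:56682470-56684196 on the plus strand, with MT1G at chr16:56666730-56668065 on the minus strand. These positions come from the annotation by symbol and not from the count table, whose build is given in different ways. Despite the likeness of the coding parts, every window of 100 bases in the canonical transcripts of MT1E, MT1F, MT1G, MT1M and MT2A was absent from transcripts of all other genes. For MT1E the transcript searched, at 100 and at 50 bases, was the one that keeps the sequence between exons 2 and 3. Its 3-exon transcript, from which the coding sequence above was read, was not searched, so its share of unique windows is not known. In MT1X 78.0% of such windows were its own, and the others were shared with the overlapping gene ENSG00000259827 on the same strand. At 50 bases the share fell to 89.7% for MT1E, 88.9% for MT2A, 80.1% for MT1G and 49.0% for MT1X. Neither the read length nor the handling of reads with several matches is given in the sources used here, so the split of reads between these genes is uncertain. MTF1, SLC39A4 and SLC39A10 overlap annotated genes on the other strand. The libraries were stranded, but the strand setting of the counts is likewise not given. Whether reads of such pairs were told apart is thus uncertain.

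Promoter sequences in the RefSeq table (GRCh38.p14) were found for 5 of the 10 genes, namely MT1X, MT2A, MTF1, SLC30A1 and SLC39A10, and not for MT1E, MT1F, MT1G, MT1M or SLC39A4. The 250 bases before the start of the most abundant pair, MT2A (chr16:56608334-56608583, plus strand) and MT1X (chr16:56682220-56682469, plus strand), are shown with every match to the 7-base core of the metal response element in capitals. The core was searched as TGCACNC and TGCGCNC on both strands.
MT2A: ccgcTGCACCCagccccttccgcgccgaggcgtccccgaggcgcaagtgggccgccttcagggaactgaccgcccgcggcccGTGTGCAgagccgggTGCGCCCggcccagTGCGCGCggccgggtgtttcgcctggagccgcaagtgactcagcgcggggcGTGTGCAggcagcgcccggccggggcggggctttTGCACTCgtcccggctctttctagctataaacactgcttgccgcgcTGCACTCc
MT1X: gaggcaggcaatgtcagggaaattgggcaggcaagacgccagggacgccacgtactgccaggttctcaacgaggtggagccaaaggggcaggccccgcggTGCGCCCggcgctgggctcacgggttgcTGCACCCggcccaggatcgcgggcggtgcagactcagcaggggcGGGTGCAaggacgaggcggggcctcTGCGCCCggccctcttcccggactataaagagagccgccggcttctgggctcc
MT2A held 7 matches and MT1X 4, SLC30A1 held 1, and MTF1 and SLC39A10 held 0. Among 35116 promoters of the same length, 24.8% held at least 1 match, 1.58% at least 3 and 0.120% at least 5. A match is a description of these letters and not evidence of binding.

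The libraries held 10888704 to 14137678 reads in genes, and 3 reads were equal to 0.189 to 0.316 CPM (reads of a gene scaled to the library total, corrected by TMM, the trimmed mean of M-values). Intervals and floors below cover counting error only. Short transcripts were over-represented in pos: among transcripts of up to 1737 nt, the shortest of 5 groups of like size, the median log2 difference from the neg mean was 0.37 in pos replicate 1 and 1.19 in pos replicate 3, and in the longest group (5684 nt and over) it was -0.26 and -1.25. The metallothionein transcripts are short and those of MTF1, SLC30A1 and SLC39A10 long, so each gene is also set beside this trend below. The 10 colon epithelium markers had a summed level of 6163 to 8035 CPM in neg and 8041 to 16704 CPM in pos, most of it from the keratins KRT8, KRT18 and KRT19. CDH1 (E-cadherin) went the other way, at 522 ± 8.95 CPM in neg and 163 ± 78.8 in pos, and LGALS4 had 6 to 10 reads in neg and 0 and 3 in pos. Of the leukocyte markers, PTPRC and CD3E were at 0 reads, CD68 was at 47.9 ± 4.78 CPM in neg and 41.4 ± 7.56 in pos, LYZ at 5.33 ± 0.521 and 12.9 ± 1.62, and CSF1R at 2.16 ± 0.130 and 0.264 ± 0.373. Of 6 fibroblast markers COL1A2 and COL3A1 were at 0 reads (summed level of the list 25.2 to 29.1 CPM in neg, 13.5 to 18.7 in pos). The 4 endothelial markers summed to 2.73 to 4.02 CPM in neg and 0.890 to 1.48 in pos. The part of these markers in the results below was not tested.

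The neg reads of MT1E enter the contrast used to choose the genes, so its place among the levels in neg is a description. In neg, MT2A dominated. Per kilobase of canonical transcript it stood at 386 ± 67.6 CPM (SD, n = 3, as for all neg values), with MT1X next at 87.6 ± 8.85. SLC39A4 (12.3 ± 1.96), SLC39A10 (11.3 ± 1.98), MT1E (10.3 ± 1.13) and MT1G (8.77 ± 2.68) followed, and neighbours among these 4 overlapped across the 3 libraries. MT1F (3.71 ± 0.811), MTF1 (2.87 ± 0.432) and SLC30A1 (2.57 ± 0.0872), the zinc exporter of the plasma membrane, came last, also with overlap between neighbours, whereas MT1G and MT1F did not overlap. MT1M was listed at 0, which allows up to 3 reads a library. With the longest annotated transcript as divisor 4 of the 10 places were the same, MT2A and MT1X among them, and MT1F moved behind SLC30A1 at 1.0 ± 0.219.

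MT1E was the metallothionein that stood out in pos. It had 116, 132 and 84 reads in neg replicates 1, 2 and 3, and 249 and 699 reads in pos replicates 1 and 3. As CPM these were 8.11, 8.30 and 6.75 in neg against 20.1 and 73.7 in pos. Both pos libraries lay above all neg libraries, at 2.61 and 9.55 times the neg mean. The fitted log2 fold change was 2.60 (SE 0.53, edgeR), from 7.72 ± 0.844 CPM in neg to 46.9 ± 37.9 in pos (SD, n = 2). In bulk RNA, more expressing cells and more RNA per cell cannot be told apart. MT1E was the 1 of 9 tested members past an adjusted p of 0.05, where 9.20% of all 13604 tested genes were past it (5.06% higher and 4.13% lower). That count is printed for orientation, since MT1E was chosen for this rise. With other tools and settings the share of all genes past the threshold was 23.2% in DESeq2, 8.81% with DESeq2 size factors, 8.84% with upper quartile scaling, 7.23% with no filter and 9.32% with a filter of 5 CPM, and MT1E was again the 1 member past it. It was 7.93% in limma-voom, 4.45% with library size only and 0.640% with the replicate number as a block, and there 0 members passed. Without pos replicate 3 it was 31.3% and 1 member, and without pos replicate 1 it was 63.1% and all 9 tested members.

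**Figure D1:**
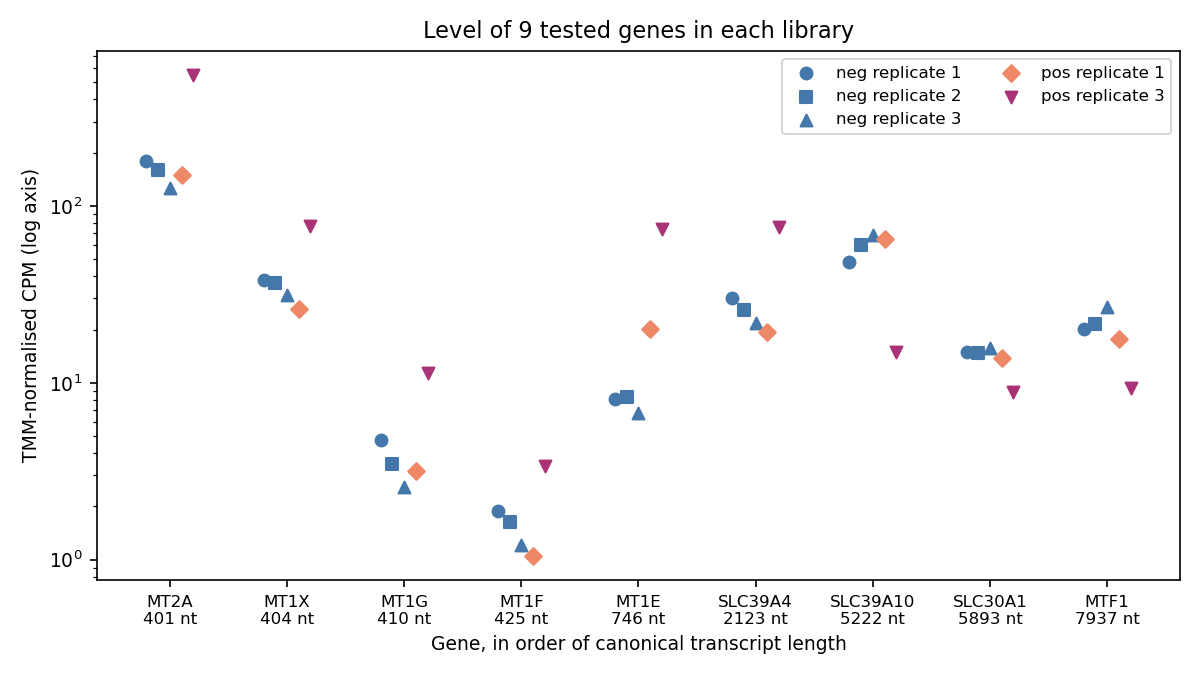
TMM-normalised CPM (log axis) of the 9 tested genes in each library, ordered by canonical transcript length; each symbol is 1 library. MT1E is the only gene with both pos libraries above all 3 neg libraries, while in pos replicate 3 all 5 metallothioneins lie above neg and MTF1, SLC30A1 and SLC39A10 below it.

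The other 4 tested metallothionein members were not above neg in pos replicate 1. MT2A, the main metallothionein of most cells, was at 179, 160 and 126 CPM in neg, 150 in pos replicate 1 and 551 in pos replicate 3. The first pos library lay inside the neg range and the second far above it. MT1X was at 38.2, 36.6 and 31.3 CPM in neg against 26.2 and 76.8 in pos replicates 1 and 3, so its pos libraries lay on either side of neg. MT1G (4.75, 3.46 and 2.57 CPM in neg, 3.16 and 11.3 in pos) and MT1F (1.89, 1.63 and 1.21 in neg, 1.05 and 3.37 in pos) were low, with 13 to 107 reads a library. Of the 5 tested metallothionein members, 4 were under the neg mean in pos replicate 1, and 5 were over every neg library in pos replicate 3. The fitted log2 fold changes were 1.18 (SE 0.52) for MT2A, 0.99 (SE 0.57) for MT1G, 0.54 (SE 0.44) for MT1X and 0.46 (SE 0.56) for MT1F. Without pos replicate 3 these became -0.07, -0.22, -0.46 and -0.62, and MT1E was at 1.35.

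The table held 16 metallothionein rows, of which 6 (MT1B, MT1H, MT1HL1, MT1M, MT4 and the pseudogene MT1IP) had 0 reads in every library. MT1L, MT1DP and MT1JP had at most 10 reads in a library and were not tested. Outside the members, MT1A had 47, 47 and 19 reads in neg and 35 and 98 in pos (log2 fold change 1.32, SE 0.61). MT3, the form first described in brain, had 10, 11 and 2 reads in neg and 9 and 20 in pos (1.38, SE 0.73). Its pos levels of 0.728 and 2.11 CPM did not overlap the neg levels, which reached 0.699, though replicate 1 differed from that by little. Neither passed the threshold. All 16 rows together came to 237, 214 and 169 CPM in neg, 205 in pos replicate 1 and 730 in pos replicate 3. The sum in pos replicate 1 was thus 0.990 times the neg mean, inside the neg range, and in pos replicate 3 it was 3.53 times.

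Within the family, MT1E took a larger share of the metallothionein reads in both pos libraries, a value that library scaling does not touch. The share rests on the reads for which MT1E was chosen, so it is a description. The canonical transcripts of MT1E (746 nt) and MT2A (401 nt) also lie at different points of the trend on length. MT1E made up 3.43%, 3.88% and 3.98% of metallothionein reads in neg replicates 1, 2 and 3. In pos replicates 1 and 3 it made up 9.85% (249 of 2528 reads, exact binomial 95% interval 8.72% to 11.1%) and 10.1% (699 of 6926, 9.39% to 10.8%). The group means were 3.76% ± 0.298 and 9.97% ± 0.172, and the pos libraries, which differed widely in MT1E level, were alike in this share. MT1X moved the other way, from 16.1%, 17.1% and 18.5% in neg to 12.8% and 10.5% in pos, with no overlap between groups. A larger share of MT1E by itself lowers the shares of the other genes. For each read of MT2A, which MT1E does not enter, there were 0.213, 0.229 and 0.249 reads of MT1X in neg and 0.175 and 0.139 in pos. MT2A kept to a narrow range, 74.2% to 75.7% in neg and 73.4% and 75.5% in pos, and MT1G at 1.52% to 2.01% in neg had 1.54% in both pos libraries. MT1F fell outside the neg range of 0.712% to 0.797% with 0.514% and 0.462% in pos, though from 13 and 32 reads, and its binomial intervals overlap those of neg. For each read of MT2A there were 0.0452 to 0.0537 reads of MT1E in neg and 0.134 in each pos library.

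**Figure D2:**
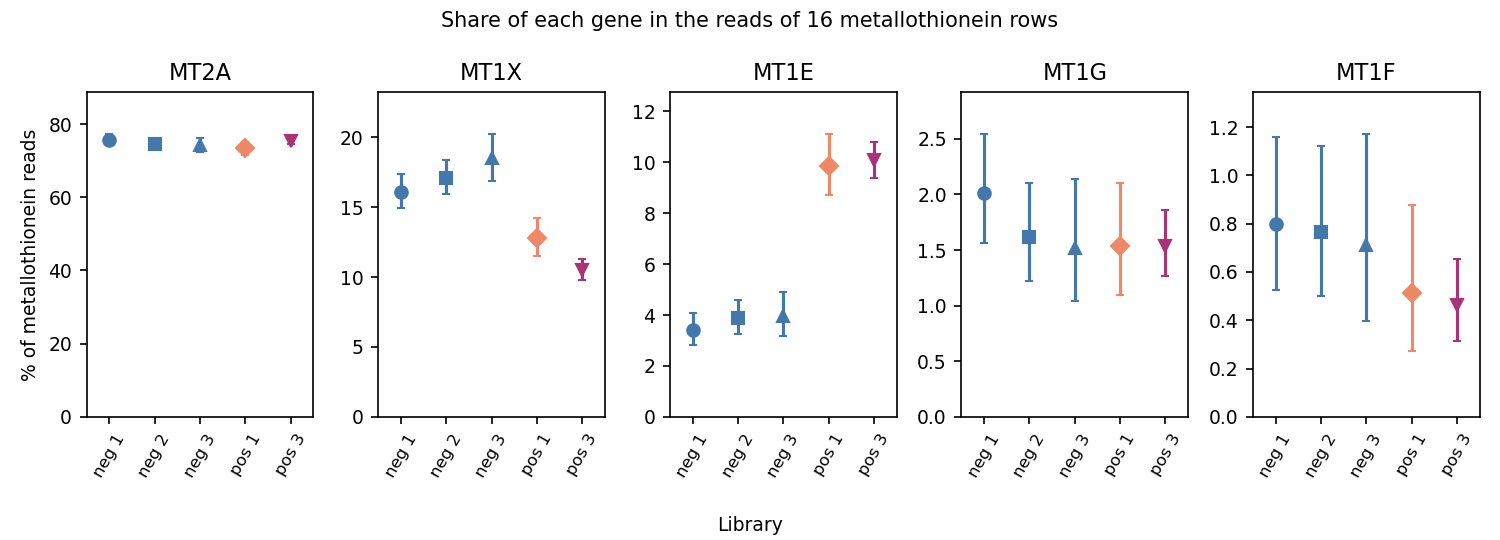
Share of metallothionein reads taken by each of 5 genes in each library; points are libraries, bars are exact binomial 95% intervals for counting error only, and each panel has its own axis from 0. MT1E takes 9.85% and 10.1% in pos against 3.43% to 3.98% in neg, and MT1X 12.8% and 10.5% against 16.1% to 18.5%.

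The levels were set beside the trend on transcript length, whose part in them was not tested. A smooth trend of log2 CPM on length, fitted to all tested genes in each library, stood 0.70 above neg in pos replicate 1 and 2.0 above neg in pos replicate 3 at the length of MT2A, MT1X, MT1G and MT1F (401 to 425 nt). These 4 genes were all below that trend, by 0.73 (MT2A) to 1.20 (MT1F) in pos replicate 1 and by 0.16 (MT2A) to 0.95 (MT1F) in pos replicate 3. MT1E, with a canonical transcript of 746 nt, was above the trend at its length by 0.82 and 1.60. Read at the length of MT2A, a choice made after the data were seen, the trend left MT1E 0.67 and 1.23 above it. With the trend removed from the counts the fitted log2 fold changes were 1.29 (SE 0.26) for MT1E, -0.42 (SE 0.20) for MT2A, -0.56 (SE 0.31) for MT1G, -1.0 (SE 0.16) for MT1X and -1.05 (SE 0.37) for MT1F. MT1E and MT1X were the 2 of 9 members past an adjusted p of 0.05 in that fit, where 14.0% of all genes were (7.31% higher and 6.65% lower). Without pos replicate 1 as well, 4 members and 51.6% of all genes passed, and without pos replicate 3, 5 members and 35.7%. The same slope, far weaker, was seen within neg: at the length of MT2A the trend in neg replicates 1 and 3 was 0.14 and -0.13 about the neg mean, and all 5 tested metallothioneins had their lowest neg level in replicate 3.

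**Figure D3:**
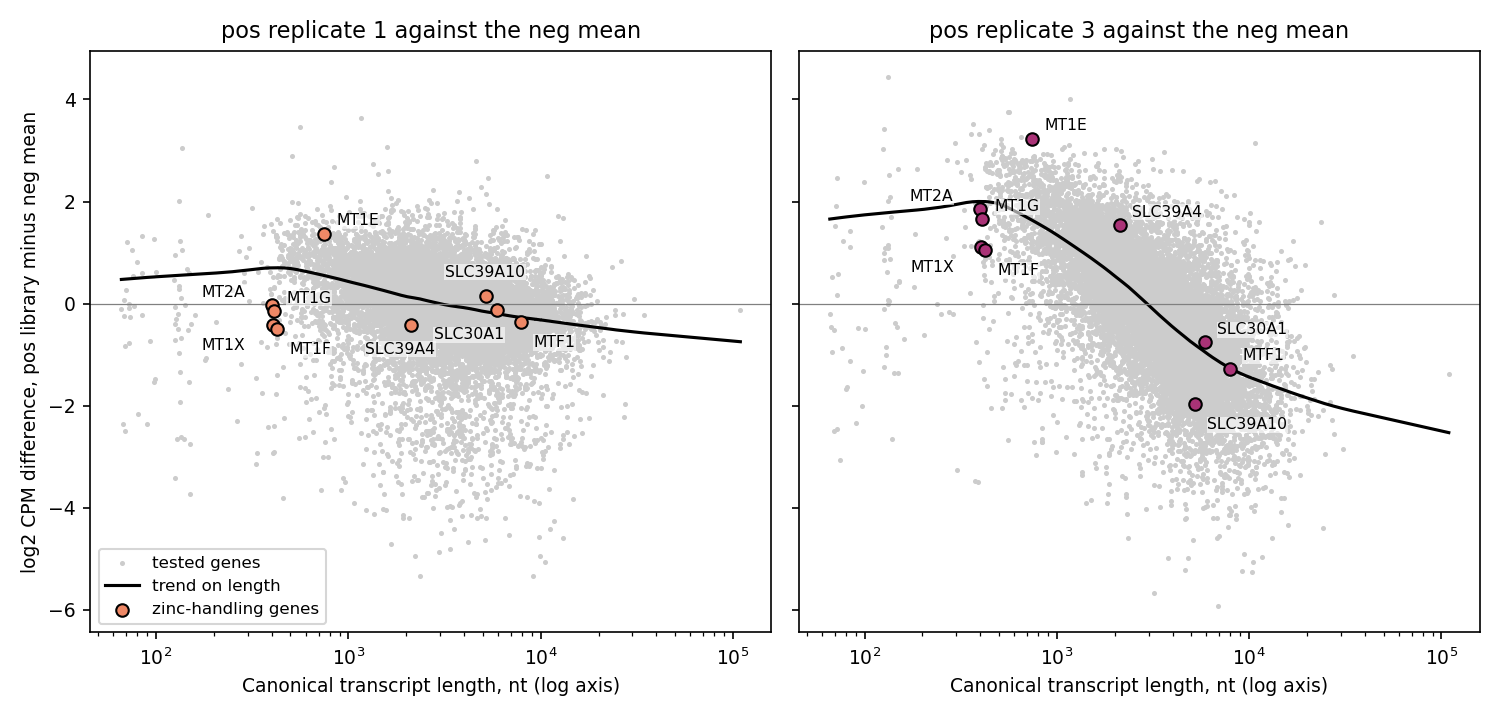
log2 CPM difference of each pos library from the neg mean against canonical transcript length (log axis); grey points are tested genes, the line is the smooth trend, and large points are the 9 tested zinc-handling genes. MT1E lies above the line in both panels (by 0.82 and 1.60), and MT2A, MT1X, MT1G and MT1F lie below it in both.

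MTF1 and SLC30A1 lay near the trend on length in both pos libraries, and SLC39A10 and SLC39A4 did not in pos replicate 3. MTF1, the regulator, was at 20.1, 21.6 and 26.7 CPM in neg and 17.6 and 9.28 in pos replicates 1 and 3. Both pos libraries were below neg, and the log2 fold change was -0.76 (SE 0.33), or -0.06 (SE 0.17) with the trend on length removed. It was -1.25 without pos replicate 1 and -0.40 without pos replicate 3. SLC30A1, an MTF1 target that exports zinc, was at 14.9, 14.8 and 15.8 CPM in neg and 13.8 and 8.86 in pos, again with both pos libraries lower (-0.41, SE 0.26; 0.11, SE 0.17, without the trend). It was -0.73 without pos replicate 1 and -0.16 without pos replicate 3. SLC39A10, a plasma membrane importer, was at 48.3, 60.3 and 68.9 CPM in neg, 65.2 in pos replicate 1 and 14.9 in pos replicate 3. The first value was inside the neg range and the second was 0.251 times the neg mean, which is 1.16 (log2) below the trend at its length. SLC39A4, the uptake transporter of enterocytes, had a transcript of intermediate length (2123 nt) and was at 30.3, 25.8 and 21.9 CPM in neg. Its 2 pos libraries lay on opposite sides of neg, at 19.3 CPM in replicate 1 and 75.5 in replicate 3, which were 0.54 below and 1.08 above the trend. Groups did not overlap for 3 of the 9 tested members (MT1E above, MTF1 and SLC30A1 below), where 56.0% of all tested genes did not overlap (26.7% higher and 29.3% lower).

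Beyond these members, the zinc transporter families were mostly not past the threshold. Of 7 tested ZnT genes SLC30A7, which loads zinc into the early secretory pathway, fell, and the other 6 were not past the threshold, beside 4.13% of all tested genes that fell and 5.06% that rose, the background for each list count here. The list's median log2 fold change was -0.41, beside -0.05 over all tested genes, with a median transcript length of 5893 nt beside 3241 nt. These medians became 0.11 and 0.02 once the length trend was taken out. SLC30A7 was at 29.5, 35.2 and 46.8 CPM in neg and 14.6 and 10.2 in pos, with no overlap (log2 fold change -1.58, SE 0.31, edgeR adjusted p = 0.0408). With the trend on length removed it was at -0.80 and did not pass (adjusted p = 0.0593). Of 12 tested ZIP genes 0 passed in edgeR, with 1.0 at an unadjusted p under 0.05, 1.0 past the adjusted threshold in DESeq2 and 0.0 in limma-voom. Their median was -0.03, and single values ran from -1.12 (SLC39A14) to 0.86 (SLC39A4). SLC39A14, which also carries iron, had the highest CPM of the ZIP genes in neg and was at 302, 287 and 262 CPM in neg and 178 and 82.8 in pos. Both pos libraries were below neg (edgeR adjusted p = 0.0854, DESeq2 adjusted p = 0.0152, and 0.0494 in edgeR with the length trend removed).

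**Figure D4:**
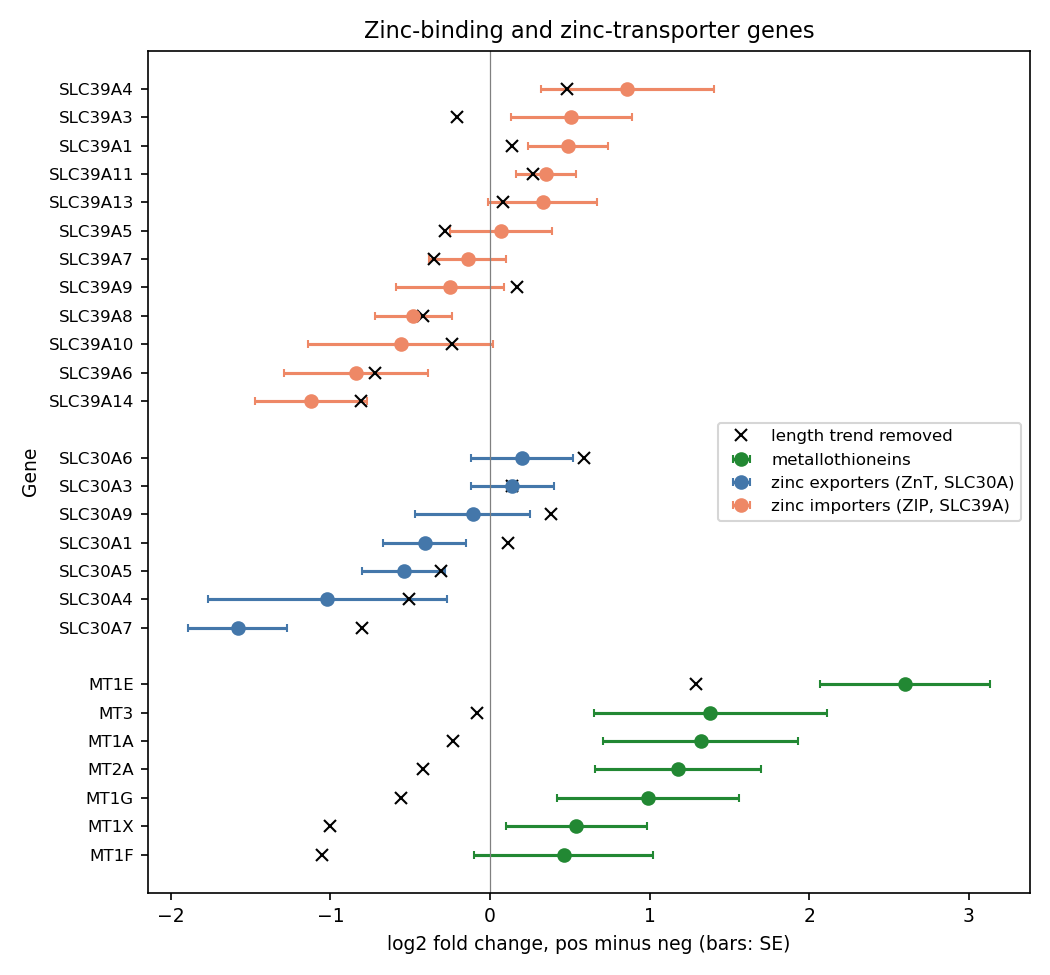
log2 fold change of pos against neg for each tested metallothionein, ZnT and ZIP gene (points, with bars of 1 SE), and the value with the trend on transcript length removed (crosses). MT1E is the one metallothionein that stays above 0 with the trend removed, and SLC30A7 is the lowest of the transporters at -1.58.

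Copper-handling, iron-handling and metal-induced stress genes were read from lists written for comparison. Of 12 tested copper-handling genes 3 rose, where 5.06% of all tested genes did: the mitochondrial copper chaperone COX17 (12.5 ± 1.09 to 45.4 ± 22.5 CPM), COMMD1, which takes part in copper export (8.24 ± 0.785 to 34.9 ± 15.1), and the copper-zinc superoxide dismutase SOD1 (90.6 ± 5.80 to 263 ± 119; SD, n = 3 neg and 2 pos). All have short transcripts, and with the length trend removed COX17 did not pass (0.41, edgeR adjusted p = 0.210) while COMMD1 and SOD1 did (0.88 and 0.49). SOD1 was at 0.95 without pos replicate 3, with the trend left in. SCO1 (9577 nt) was not past the threshold on the counts as deposited (0.49). Its levels were 43.8 ± 0.389 CPM in neg and 61.3 ± 3.56 in pos. With the trend removed it passed as higher (1.45, edgeR adjusted p = 0.0398). That value rests on the annotated length, at which the trend was -0.31 in pos replicate 1 and -1.41 in pos replicate 3. COMMD1, SOD1 and SCO1 made 3 of 12 in that fit, where 7.31% of all tested genes were higher. Of 13 iron-handling genes HFE, a regulator of iron uptake, rose from 3.37 ± 0.347 to 11.8 ± 5.06 CPM. With the length trend removed 1 was higher, HFE (2.21), and 1 lower, FTH1 (-1.12, SE 0.12). In that fit 7.31% of all tested genes were higher and 6.65% lower. FTH1 was at 3481 ± 416 CPM in neg and 2824 ± 1218 in pos, and did not pass with the trend left in (-0.30). The list medians were 0.39 for copper and -0.26 for iron, and 0.06 for both with the length trend removed.

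Of 14 genes listed as metal-induced stress genes, 2 fell and 1 rose, at a median of -0.80 beside -0.05 over all genes. Of all tested genes 4.13% fell and 5.06% rose. HMOX1, the heme oxygenase induced by cadmium and oxidants, was at 10.4, 7.36 and 7.47 CPM in neg and 1.70 and 1.90 in pos, from 21 and 18 reads in pos (log2 fold change -2.22, SE 0.32, adjusted p = 0.0326). SRXN1, an antioxidant sulfiredoxin, was at 132, 121 and 113 CPM in neg and 61.4 and 62.0 in pos (-0.98, SE 0.19, adjusted p = 0.0397). For both genes the pos libraries were alike and lay below neg. HSPA8 rose from 1830 ± 148 to 4529 ± 443 CPM, and is a constitutive heat shock chaperone that the list holds beside inducible ones. All 3 also passed with the length trend removed (-2.76, -1.13 and 1.06). In that fit 5 of the 14 were lower and 1 higher, where 6.65% of all tested genes were lower and 7.31% higher. A further list held glucocorticoid-induced genes, a class that metallothioneins belong to in many tissues, and the glucocorticoid receptor gene NR3C1 itself. Of its 10 tested genes, KLF9 (35.2 ± 3.50 to 11.0 ± 4.55 CPM) and ERRFI1 (630 ± 7.11 to 147 ± 59.1 CPM) fell. With the length trend removed 3 of the 10 were lower, KLF9 (-1.24) and ERRFI1 (-2.06) among them, and 0 were higher. The median of this list was -0.42, and -0.25 with the trend removed. NR3C1 had 29, 29 and 30 reads in neg and 6 and 0 in pos without passing (edgeR adjusted p = 0.0709). Leaving out neg replicate 1, 2 or 3 left 0 of all tested genes past the threshold in edgeR, so each call of edgeR on the counts as deposited rests on all 3 neg libraries. The DESeq2 fit and the fit with the length trend removed were not run without a neg library. An unadjusted p under 0.05 was then reached by 3033, 2510 and 2607 genes in turn.

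The genes whose profile over the 5 libraries was nearest to MT1E, by root mean square difference of log2 CPM about the neg mean among 10865 genes with a mean of at least 5 CPM over the 5 libraries, were MYEOV2 (0.10), ASPSCR1 (0.11), UBL5 (0.12), RPS14 (0.13) and HBQ1 (0.13). They were at 2.37 to 2.65 times the neg mean in pos replicate 1 and 7.91 to 8.97 times in pos replicate 3, against 2.61 and 9.55 for MT1E. HBQ1 reached that mean through pos, at 1.88 ± 0.326 CPM in neg against 4.45 and 16.9 in pos. The likeness is to a profile that chose the members, and is a description. The transcripts of the 5 genes were 418, 1764, 407, 2146 and 528 nt long. Among the other members the nearest was MT2A at 0.89, and the farthest was SLC39A10 at 2.40.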

How the data were processed

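RNA of SW620 cells was sequenced from TruSeq stranded mRNA libraries, and reads were aligned with STAR, per the labels' protocols. The authors deposited raw counts per gene symbol for 5 libraries. The submitters' processing notes list CASAVA 1.8.2, STAR 2.5.2b and DESeq2 1.24.0 and the build hg19, whereas the labels' protocols name GRCh38. The counting program is not given in the sources used here.

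Of 25435 rows, 92 spike-in rows at 0 were left out. In R 4.3.3 with edgeR 4.0.16, filterByExpr with a minimum count of 10 and a minimum total of 15 left 13604 genes. They were scaled by TMM, and the pos and neg libraries were compared by the two-sided glmQLFTest, adjusted by Benjamini-Hochberg over all 13604 at 0.05. SE is the log2 fold change over the square root of F. The length trend is a lowess (span 0.3) of log2 CPM (prior count 2) about each gene's mean on canonical transcript length in GENCODE 44, known for 97.5% of tested genes, removed as offsets. Alternatives were DESeq2 1.42.0, limma-voom 3.58.1, other scalings and filters, the replicate block and leaving out libraries. The edgeR step was tested on simulated data. Libraries of a group differed by more than sampling noise (chi-square per degree of freedom 6.02 to 22.4 in neg, 152 in pos).

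The members, the lists and the tests were chosen with earlier results of these data known. The text names the 10 members, MUC1, all metallothionein rows, up to 4 called genes by smallest p of every other list, and the 5 genes nearest to MT1E. SLC39A14, NR3C1, SCO1 and FTH1 were named after their values were seen. The summed level of the leukocyte markers is not reported here.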

Additional observations from a re-analysis of the deposited data

How the results depend on the processing

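The number of genes past the threshold, 1251, was 3161 in DESeq2, 606 with library size only (148 higher and 458 lower, against 689 and 562, as the median log2 fold change of all genes moved from -0.05 to -0.41), 87 with the replicate block and 1900 with the length trend removed. Without 1 library it ran from 0 to 8819. The numbers do not pair the libraries in the labels. Same-numbered libraries had r = -0.44 and -0.45, which with 2 pos libraries mirror each other's by construction and say little on pairing. The number of members past the threshold, 1, was 0 in limma-voom, with library size only and with the replicate block, 2 with the length trend removed, and 0 to 9 without 1 library. With the trend removed and pos replicate 1 or 3 left out, 7213 or 4997 genes and 4 or 5 members passed; a lone pos library is assumed there to vary like neg.

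MT1E kept its direction in all 16 alternatives, with log2 fold changes of 2.29 in limma-voom, 2.07 with library size only, 2.38 with the replicate block and 2.51 to 2.65 without a neg library, and lost the threshold in these 6. It was 3.30 without pos replicate 1 and 1.35 without pos replicate 3, and with the trend also removed 1.65 and 0.83. MTF1 was below 0 throughout, but with the trend removed at -0.06, -0.01 and -0.11, within 1 SE of 0. With pos replicate 1 left out the values were farther from 0, at 1.13 for MT1F, 1.69 for MT1G, 1.16 for MT1X, 1.88 for MT2A, -1.95 for SLC39A10, 1.58 for SLC39A4, -1.25 for MTF1 and -0.73 for SLC30A1, the last pair now past the threshold (adjusted p = 0.00301 and 0.0126) as were all 9. With pos replicate 3 left out the signs of MT1F (-0.62), MT1G (-0.22), MT1X (-0.46), MT2A (-0.07), SLC39A10 (0.11) and SLC39A4 (-0.46) reversed. Removing the length trend reversed those of MT1F (-1.05), MT1G (-0.56), MT1X (-1.0), MT2A (-0.42) and SLC30A1 (0.11). With that and without pos replicate 1 the reversed values were -0.79 for MT1F, -0.22 for MT1G, -0.75 for MT1X, -0.03 for MT2A and 0.18 for SLC30A1, and without pos replicate 3 they were -1.25, -0.85, -1.10, -0.70 and 0.05, with 0.30 for SLC39A10 and -0.55 for SLC39A4. MT1F was at -0.03 with library size only. The ratio of summed metallothionein levels, 2.26, was 1.57 with library size only and 0.763 with the length trend removed. Without pos replicate 1 and 3 it was 3.53 and 0.990. The order of levels in neg kept 4 of 10 places with the longest transcripts. The cause was not tested. MT1F rests on 13 to 32 reads a library, which limits its precision.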
